A study of Saccharomyces cerevisiae W303 with 3 samples.

Results

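The branched-chain amino acid synthesis genes examined here are the 10 genes ILV1, ILV2, ILV3, ILV5, ILV6, BAT1, BAT2, LEU1, LEU4 and LEU9, which were chosen by name, and by the open reading frame YOR108W for LEU9, whose probe carries no gene name on the array. They are 10 of the 6252 genes measured. Cells of Saccharomyces cerevisiae strain W303 were grown at 30 °C in 3 independent continuous cultures, each started from a single colony. The synthetic minimal medium held glycerol, a smaller amount of glucose, and yeast extract. Amino acids and nucleotides that the strain needs were added. RNA of each culture taken at 240 generations was compared with RNA of the same culture taken at 40 generations on 2 two-color arrays, once with each assignment of the Cy5 and Cy3 dyes, which gives 6 arrays and 3 biological replicates. At both time points the strain carries mutated alleles of LEU2, which block the dehydrogenase step of leucine synthesis, and of HIS3, ADE2, TRP1, URA3 and CAN1. The populations at 240 generations also differ by mutations in their gene pools, in HOG1 and MSY1 in Replicate 1, in HOG1 and URE2 in Replicate 2 and in MSY1 in Replicate 3, so each culture is a single evolved population. RNA was taken from the whole population, in which a change in part of the cells and a smaller change in all of them cannot be told apart.

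Isoleucine, valine and leucine are made in yeast along a shared set of reactions, most of them in mitochondria. Threonine deaminase (Ilv1p) opens the isoleucine branch, and acetohydroxyacid synthase (Ilv2p, with its regulatory subunit Ilv6p), the reductoisomerase Ilv5p and the dehydratase Ilv3p act on both the isoleucine and the valine intermediates. The leucine branch leaves from the keto acid of valine through the α-isopropylmalate synthases Leu4p and Leu9p, the isomerase Leu1p and the dehydrogenase Leu2p. The aminotransferases Bat1p, in mitochondria, and Bat2p, in the cytosol, transfer the amino group in the last step of synthesis and in the first step of breakdown. General amino acid control by Gcn4p, and activation by Leu3p once α-isopropylmalate is bound to it, are the best known regulators of these genes.

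Values are log2 ratios of 240 over 40 generations, so a positive value means more RNA at 240 generations. They were computed from spot intensities after background correction and a loess curve for dye bias, and averaged over the 2 spots of a gene and the 2 arrays of a culture. Median spot intensities ranged from 518 to 1027, over local backgrounds of 40 to 68. A gene counted as above background where its signal exceeded the local background by more than 2 background SDs, and the 5504 genes above it on at least 4 arrays at one of the time points were tested with limma across the 3 cultures, with Benjamini-Hochberg adjustment over all of them. Of these, 769 were higher and 754 were lower at 240 generations (adjusted p under 0.05), and the median was -0.01. The ratios of Replicate 1 correlated less with those of Replicates 2 and 3 (Pearson's r of 0.71 and 0.66 over the genes tested, which share their arrays) than these did with each other (0.88). Leaving out Replicate 1, 2 or 3 gave 2492, 290 or 674 calls. The methods give the strain as MATa, whereas the probes of the a-cell genes MFA1, MFA2, BAR1 and AGA2 were not above background on enough arrays to be tested, and those of the α-cell genes MF(ALPHA)1, MF(ALPHA)2, STE3 and SAG1 were above background on all 6 arrays at both time points. STE2 was above background on 2 arrays at 240 generations and 4 at 40 generations, STE6 on all 6 at both, and neither passed the test, although each passed as lower in 2 of the alternatives run. Of the 4 α-cell genes, 3 were higher at 240 generations, and 1 was without Replicate 2. The strain is therefore called W303 here without its mating type, and the part of mating type in the results was not tested.

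All 10 genes were above background on the 6 arrays at both time points, none of their spots had saturated pixels, and all 10 were tested. BAT2, BAT1 and LEU1 were higher at 240 generations, none of the 10 was lower, and the other 7 did not pass the test. Among all genes tested, 27.7% were called in either direction, 14.0% as higher and 13.7% as lower, so that 3 calls among 10 genes, a share of 30%, is close to the background. The median log2 ratio of the 10 genes was 0.19, with 0.30, 0.21 and 0.42 in Replicates 1, 2 and 3. Their means ranged from -0.30 for ILV2 to 1.53 for BAT2. BAT1, BAT2, LEU1 and LEU4 were above 0 in all 3 cultures, ILV2 was below 0 in all 3, and ILV1, ILV5, ILV6 and LEU9 had both signs. ILV3 was within 0.03 of 0 in Replicates 2 and 3. On the single arrays, 3 of the 10 genes were above 0 on all 6 and 1 was below 0 on all 6, against 53.6% of the genes tested that had one sign throughout.

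**Figure D1:**
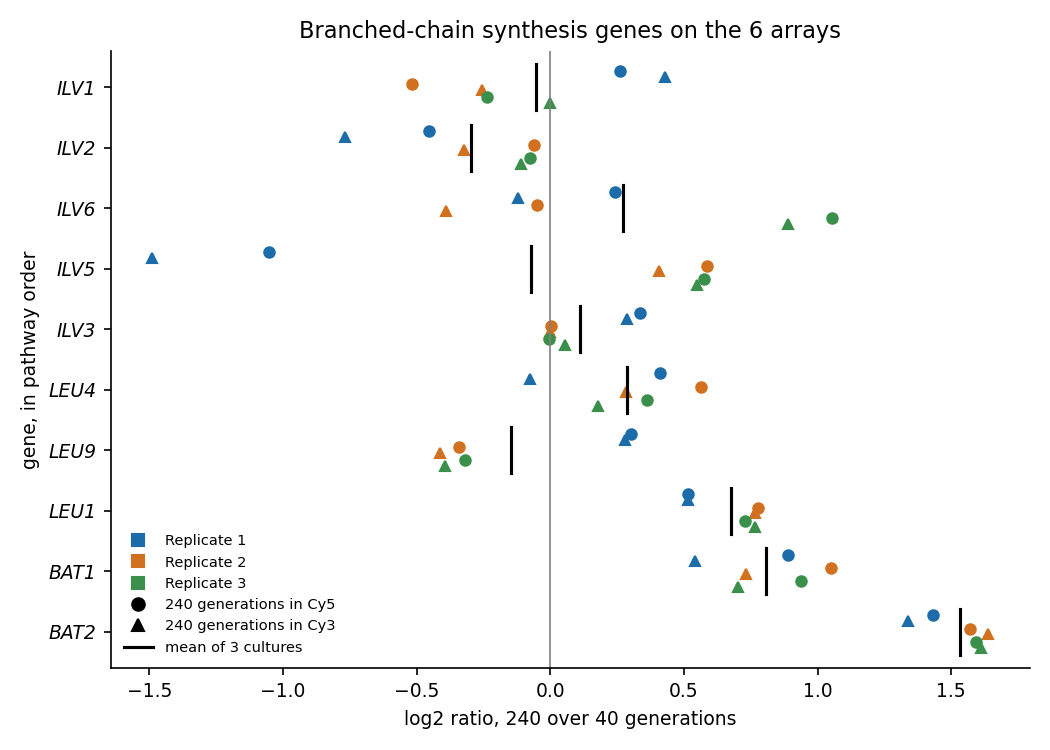
Log2 ratio of 240 over 40 generations (x axis) of the 10 genes in pathway order (y axis), with 1 point per array, colors for the 3 cultures, circles and triangles for the dye of the RNA of 240 generations, and a bar at the mean of the 3 cultures. LEU1, BAT1 and BAT2 lie above 0 on all 6 arrays, and the points of ILV5 for Replicate 1 lie apart from those of the other cultures.

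The aminotransferase genes gave the largest means of the set. The probe of BAT2, the cytosolic enzyme, had normalized intensities of 15647, 21043 and 11764 at 240 generations in Replicates 1, 2 and 3, against 5987, 6921 and 3873 at 40 generations. Its log2 ratios were 1.39, 1.60 and 1.60 in the same cultures, with a mean of 1.53 ± 0.13 (SD, n = 3, adjusted p = 0.0018 with limma, 95% confidence interval 1.25 to 1.81), that is 2.89-fold. All 3 intensities at 240 generations were above all 3 at 40 generations, and 99.5% of the genes tested had a lower mean. The dye-swapped arrays of a culture differed by at most 0.09, and the call was kept in every alternative processing that was run, with a mean between 1.36 and 1.60. Of the 10 genes, only BAT2 also met a stricter selection with limits on the size of the mean log2 ratio (at least 0.9), its unadjusted p and its SD.

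BAT1, the mitochondrial enzyme, had normalized intensities of 3348, 11264 and 2435 at 240 generations, against 2040, 6075 and 1380 at 40 generations. Here the cultures differed more than the time points, since the probe was brighter in Replicate 2 at both time points than in the other cultures at either, and within each culture the value at 240 generations was the higher one. The log2 ratios were 0.71, 0.89 and 0.82, with a mean of 0.81 ± 0.09 (SD, n = 3, adjusted p = 0.0080 with limma, 95% confidence interval 0.54 to 1.08), that is 1.75-fold. In every culture the array with the RNA of 240 generations in Cy5 gave the higher ratio, by up to 0.35, and the 2 spots of the gene on an array differed by up to 0.64. BAT1 no longer passed without Replicate 2 (adjusted p = 0.076) or in a fit without the pairing of both time points (adjusted p = 0.47), in which the spread between cultures enters the error.

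BAT1 and BAT2 were compared through their ratios, because the signals of different probes cannot be set against each other. The log2 ratio of BAT1 minus that of BAT2 was -0.67, -0.71 and -0.78 in Replicates 1, 2 and 3, with a mean of -0.72 ± 0.06 (SD, n = 3). The change of BAT2 was thus 1.65 times that of BAT1, and on each of the 6 arrays BAT1 had the smaller ratio, with differences between -0.91 and -0.52. The 3 differences lay close to each other relative to their size. An exact two-sided sign-flip test over the 3 cultures gave p = 0.25, the smallest p that 3 cultures allow, so this test cannot pass a threshold of 0.05. The difference was between -0.87 and -0.57 in the alternatives run. The paralogs are similar in sequence, and whether the probe of one also captures transcripts of the other was not tested, nor was this tested for LEU4 and LEU9.

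**Figure D2:**
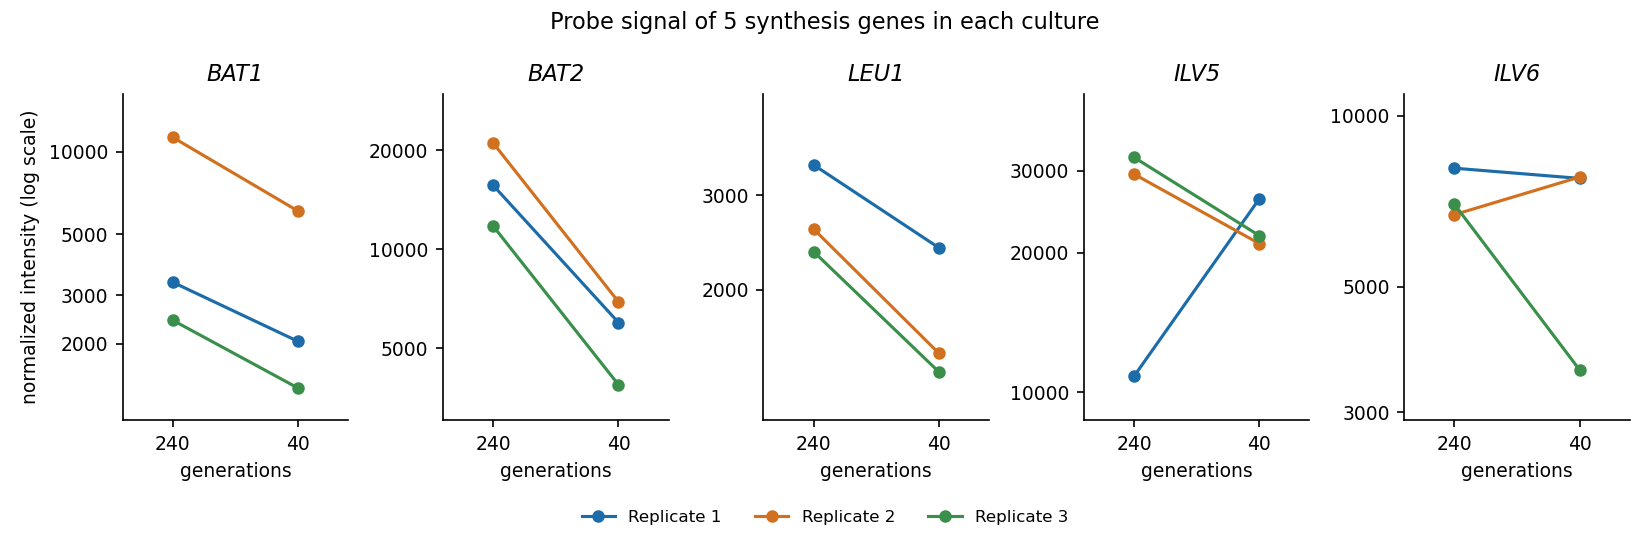
Normalized probe intensity (y axis, log scale, its own range in each panel) of BAT1, BAT2, LEU1, ILV5 and ILV6 at 240 and 40 generations (x axis), with 1 line per culture and each point the mean of 2 arrays. The lines of BAT1, BAT2 and LEU1 run the same way in the 3 cultures, and for ILV5 the line of Replicate 1 runs against the others.

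By the rule of the 3 other genes with the smallest Euclidean distance over the 6 arrays, BAT1 was nearest to SFG1 (distance 0.21, mean log2 ratio 0.81), RAD27 (0.28, mean 0.85) and LSC2 (0.29, mean 0.86). BAT2 was nearest to FOX2 (distance 0.37, mean 1.58), DDI3 (0.47, mean 1.57) and DDI2 (0.47, mean 1.58). DDI2 and DDI3 are nearly identical copies and count as 1 measurement. None of these genes belongs to branched-chain synthesis.

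In the leucine branch, LEU1, the cytosolic isopropylmalate isomerase with an iron-sulfur cluster, had normalized intensities of 3422, 2597 and 2356 at 240 generations, against 2396, 1521 and 1404 at 40 generations. Its log2 ratios were 0.51, 0.77 and 0.75 (mean 0.68 ± 0.14, SD, n = 3, adjusted p = 0.014 with limma, 95% confidence interval 0.39 to 0.96), that is 1.60-fold. The intensities of the time points overlap by 1 value, that of Replicate 1 at 40 generations, and within each culture the value at 240 generations was higher. LEU1 did not pass without Replicate 2 (adjusted p = 0.11), without Replicate 3 (adjusted p = 0.063) or without pairing of the time points (adjusted p = 0.13).

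LEU4, the main α-isopropylmalate synthase, which is inhibited by leucine, had log2 ratios of 0.17, 0.42 and 0.27. The mean of 0.29 ± 0.13 (SD, n = 3) did not pass (adjusted p = 0.11 with limma, unadjusted p = 0.047, 95% confidence interval 0.01 to 0.57). The value depends on the dye: the arrays with 240 generations in Cy5 gave the higher ratio in all 3 cultures, by up to 0.49, and the gene passed on these arrays alone (adjusted p = 0.034) as well as without Replicate 1 (adjusted p = 0.033). With each array centered on its median in place of loess, the mean of LEU4 was 0.0066 (adjusted p = 0.97). LEU9, the minor synthase, had 0.29 in Replicate 1, against -0.38 and -0.36 in Replicates 2 and 3 (mean -0.15 ± 0.38, adjusted p = 0.53), and passed as lower without Replicate 1 (adjusted p = 0.024). The ratio of LEU4 minus that of LEU9 was -0.12, 0.80 and 0.63 (mean 0.43 ± 0.49, SD, n = 3, exact sign-flip p = 0.50, two-sided). This pair therefore differed by less than its spread over the cultures.

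LEU2 is not one of the 10 genes. Its product is inactive in this strain, but its probe reads the transcript of the mutated allele. It had log2 ratios of 1.44, 0.78 and 1.26 (mean 1.16 ± 0.34, SD, n = 3, adjusted p = 0.0081 with limma). OAC1, the mitochondrial carrier that passes α-isopropylmalate to the cytosol, had 1.31, 0.99 and 1.23 (mean 1.18 ± 0.17, adjusted p = 0.0041). Both were above 0 in all 3 cultures. They belong to a list of 5 genes, of which 2 were higher, against 14.0% of all genes tested. The other 3, LEU3, GCN4 and MMF1, did not pass. LEU1, BAT1 and BAT2 were higher too, while LEU4, though above 0 in all 3 cultures, and LEU9 did not pass. No test was made between the steps of the pathway.

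Among the genes of the steps shared by isoleucine and valine, ILV5 and ILV6 varied most between the cultures. ILV5, the acetohydroxyacid reductoisomerase, which also takes part in the stability of mitochondrial DNA, had normalized intensities of 10820, 29544 and 32111 at 240 generations, against 26111, 20924 and 21765 at 40 generations. Its log2 ratio was -1.27 in Replicate 1, against 0.50 in Replicate 2 and 0.56 in Replicate 3. The 3 intensities at 40 generations lay within a narrow range, and that of Replicate 1 at 240 generations lay below all others. Its mean of -0.07 ± 1.04 (SD, n = 3, adjusted p = 0.90 with limma) therefore describes none of the cultures, and 99.5% of the genes tested had a smaller SD. Both arrays of Replicate 1 were low, with -1.49 and -1.05, and without this culture the mean was 0.53 and passed as higher (adjusted p = 0.0057).

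ILV6, the regulatory subunit of acetohydroxyacid synthase, had normalized intensities of 8090, 6698 and 6990 at 240 generations, against 7761, 7804 and 3565 at 40 generations. Its log2 ratio was 0.97 in Replicate 3, against 0.06 and -0.22 in Replicates 1 and 2 (mean 0.27 ± 0.62, SD, n = 3, adjusted p = 0.42 with limma). The low value was that of Replicate 3 at 40 generations, and the 3 intensities at 240 generations lay close together. ILV2, which encodes the catalytic subunit of the same enzyme, had -0.61, -0.19 and -0.09 (mean -0.30 ± 0.28, adjusted p = 0.16) and was below 0 on all 6 arrays.

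ILV3, the dihydroxyacid dehydratase, had log2 ratios of 0.31, -0.00 and 0.03 (mean 0.11 ± 0.17, SD, n = 3, adjusted p = 0.50 with limma), with a 95% confidence interval from -0.18 to 0.41. ILV1, the threonine deaminase, had 0.35, -0.39 and -0.12 (mean -0.05 ± 0.37, adjusted p = 0.83). ILV1 and LEU9 shared the pattern of a value above 0 in Replicate 1 and below 0 in the others. Each culture gave 1 RNA sample at each time point, and no test was made between cultures.

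In Replicates 1 and 3, the difference of a culture from the mean of the other 2 followed gene length across genes. Spearman's rho was -0.37 and 0.43, against 0.09 for Replicate 2. The log2 ratios themselves had a rho with length of -0.26, -0.07 and 0.08 in Replicates 1, 2 and 3. The coding lengths of the 10 genes range from 930 bases in ILV6 to 2340 bases in LEU1. With a loess curve of each culture's own log2 ratios on gene length removed, the same 3 genes passed and BAT1 minus BAT2 was -0.72. ILV5 has 1188 bases, and its log2 ratio in Replicate 1 was -1.27. The part of gene length in this value was not tested.

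**Figure D3:**
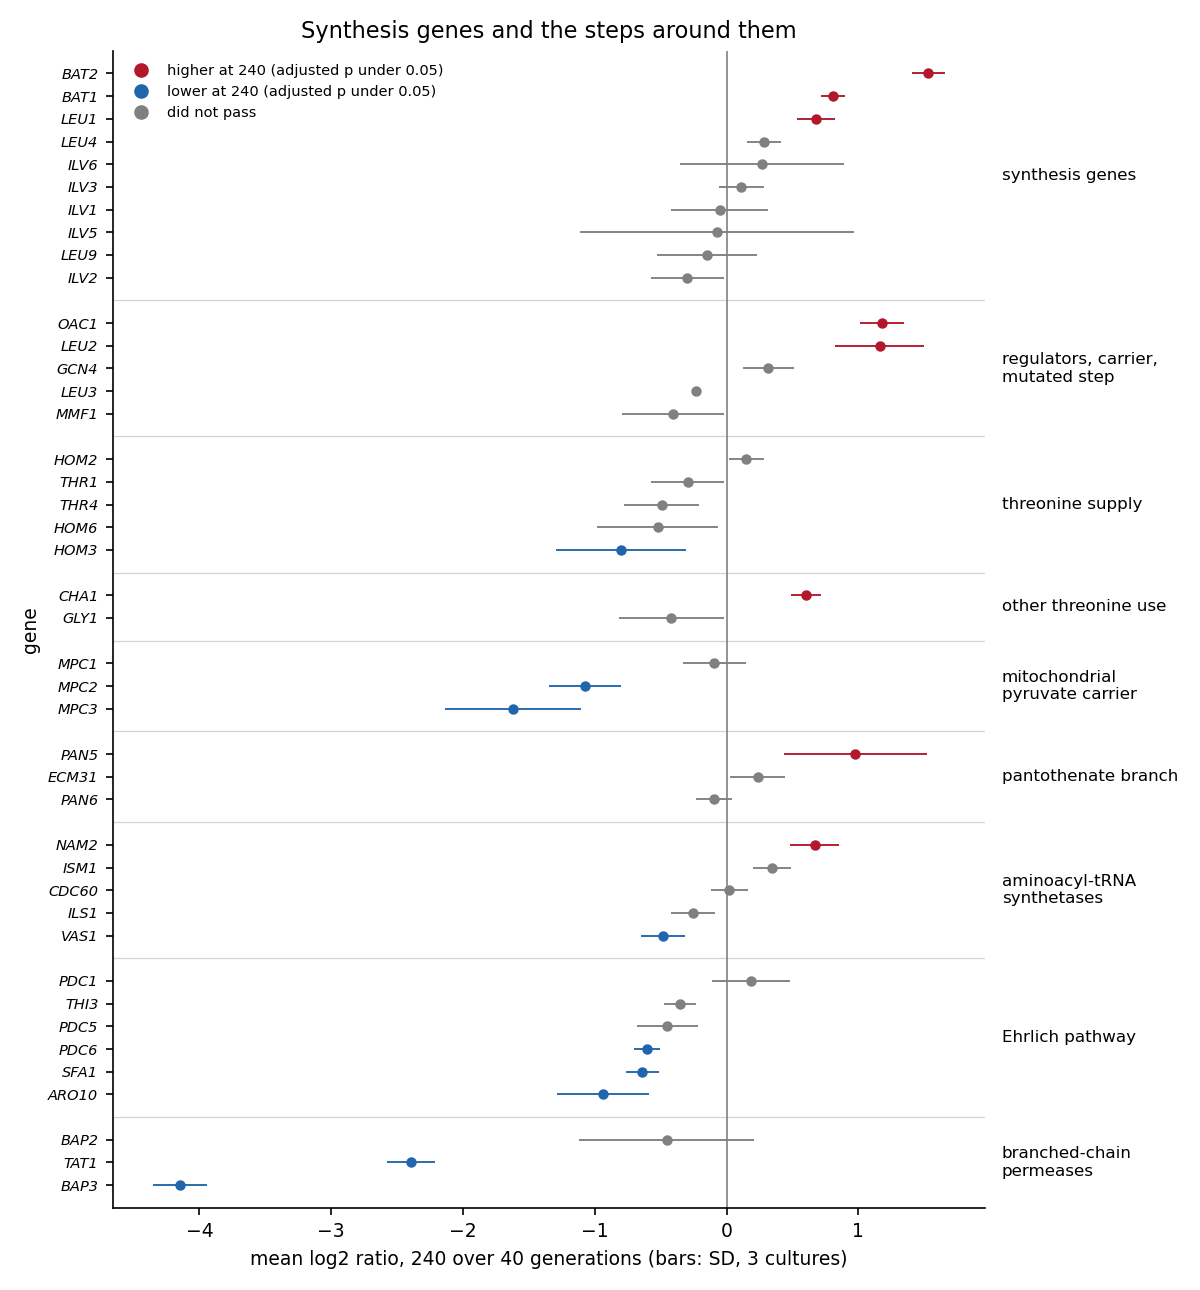
Mean log2 ratio of 240 over 40 generations (x axis, bars for the SD of the 3 cultures) of the 10 synthesis genes and of the genes in the steps around them (y axis, grouped at the right), colored by the result of the test. OAC1 and LEU2 lie beside the 3 synthesis genes that rose, and BAP3 and TAT1 lie farthest to the left.

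The regulators had small ratios. LEU3, which encodes the activator of the leucine branch, had -0.24, -0.26 and -0.20 (mean -0.23 ± 0.03, SD, n = 3, adjusted p = 0.14 with limma), and GCN4, whose product is controlled mainly at translation, had 0.51, 0.12 and 0.32 (mean 0.32 ± 0.19, adjusted p = 0.11). Transcript ratios of these factors do not measure their activity. Of 8 genes described as Leu3p targets, a group put together after the values were seen, LEU1, LEU2, BAT1 and OAC1 were higher, LEU4, ILV2 and ILV5 did not pass, and GDH1, the glutamate dehydrogenase that supplies the amino group, was lower with log2 ratios of -1.22, -1.88 and -1.31 (adjusted p = 0.0050). The median of the group was 0.48. Of all genes tested, 14.0% were higher and 13.7% were lower. Since the group was chosen with the values known, its counts and median describe these genes and test nothing. MMF1, a mitochondrial protein needed for the isoleucine branch, had 0.01, -0.46 and -0.76 (adjusted p = 0.12), and passed as lower without Replicate 1 (adjusted p = 0.0050).

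The supply of precursors was also measured. Among 5 genes of threonine synthesis from aspartate, HOM3, the aspartate kinase, was lower with -0.42, -1.36 and -0.62 (mean -0.80 ± 0.49, SD, n = 3, adjusted p = 0.035 with limma), a call lost without Replicate 2 (adjusted p = 0.16), without Replicate 3 (adjusted p = 0.054) and without the filter on dim probes (adjusted p = 0.057), and 4 did not pass. The median of these 5 was -0.49. Over all genes tested, 13.7% were lower and 14.0% were higher. Without Replicate 1, 3 of the 5 were lower, with HOM6 (adjusted p = 0.0018) and THR4 (adjusted p = 0.0023) beside HOM3. That fit called 1261 of the 5504 genes tested as lower. THR4 also passed with median centering (adjusted p = 0.025) and on the arrays with 240 generations in Cy5 (adjusted p = 0.033), and HOM6 on those with it in Cy3 (adjusted p = 0.049). CHA1, the catabolic threonine and serine deaminase, which catalyzes the same reaction as Ilv1p, was higher with 0.65, 0.47 and 0.69 (adjusted p = 0.017), lost without Replicate 2 (adjusted p = 0.097) or Replicate 3 (adjusted p = 0.087). Of the mitochondrial pyruvate carrier, which delivers the substrate of Ilv2p, MPC3, the subunit of respiring cells, had -1.74, -1.05 and -2.06 (mean -1.62 ± 0.52, adjusted p = 0.0070) and MPC2, the subunit of fermenting cells, -1.20, -1.26 and -0.76 (mean -1.07 ± 0.27, adjusted p = 0.0076). MPC1, the subunit common to both forms, did not pass (mean -0.09 ± 0.24). The MPC1 probe was dim, with normalized intensities of 175, 171 and 181 at 240 generations, against 162, 175 and 232 at 40 generations. The call of MPC2 was lost without Replicate 2 (adjusted p = 0.057). In the pantothenate branch, which uses the keto acid of valine, PAN5 was higher (mean 0.98 ± 0.54, adjusted p = 0.025, and 0.061 without Replicate 2), while ECM31 and PAN6 did not pass.

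Several genes of uptake and breakdown were lower at 240 generations. BAP3, a permease of branched-chain and other amino acids, had normalized intensities of 206, 142 and 162 at 240 generations, against 3278, 2967 and 2717 at 40 generations, and its log2 ratio was -4.15 ± 0.21 (SD, n = 3, adjusted p = 2.8e-04 with limma). TAT1, a permease of the same family, had 146, 118 and 157 at 240 generations, where it was above background on 3 of the 6 arrays, against 711, 714 and 769 at 40 generations (log2 ratio -2.39 ± 0.18, adjusted p = 6.6e-04). The size of these ratios depends on the background correction, which matters at low signals: with plain subtraction BAP3 was at -5.14 and TAT1 at -3.47, and with the deposited ratios at -5.10 and -3.60. For both, the intensities at 240 generations lay below those at 40 generations in every culture. BAP2, the main branched-chain permease, had -1.16, 0.15 and -0.34 and did not pass (mean -0.45 ± 0.66, adjusted p = 0.21). The Ehrlich pathway turns the keto acids left by Bat1p and Bat2p into fusel alcohols. Against 13.7% of all genes tested that were lower, 3 of 6 genes of this pathway were lower, none was higher and the median was -0.52. This list was chosen with earlier results of these data known, so its count describes these genes and is no test. The lower genes were the decarboxylase genes ARO10 (mean -0.94 ± 0.35, adjusted p = 0.014) and PDC6 (-0.60 ± 0.10, adjusted p = 0.017) and the alcohol dehydrogenase gene SFA1 (-0.64 ± 0.12, adjusted p = 0.015). These 3 calls were lost without Replicate 2, with adjusted p values of 0.088, 0.13 and 0.11, and that of PDC6 also without Replicate 3 (adjusted p = 0.056). With median centering, and on the arrays with 240 generations in Cy5, 5 of the 6 genes were lower, with THI3 (adjusted p = 0.038 and 0.028) and PDC5 (adjusted p = 0.037 and 0.029) added. These settings called 997 and 852 of the 5504 genes tested as lower. PDC5 passed as lower also without Replicate 1 (adjusted p = 0.042) and with the correction for gene length (adjusted p = 0.034).

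Among 5 aminoacyl-tRNA synthetase genes for isoleucine, leucine and valine, NAM2, the mitochondrial leucyl enzyme, was higher (mean 0.67 ± 0.19, SD, n = 3, adjusted p = 0.017 with limma) and VAS1, the valyl enzyme, was lower (-0.48 ± 0.17, adjusted p = 0.034). Both calls were lost without Replicate 2 (adjusted p = 0.13 and 0.24) and without Replicate 3 (adjusted p = 0.063 and 0.14), and that of VAS1 also with the correction for gene length (adjusted p = 0.11) and on the arrays with 240 generations in Cy3 alone (adjusted p = 0.053). Without pairing, HOM3, CHA1, MPC3, PDC6, SFA1, NAM2 and VAS1 did not pass, with adjusted p between 0.054 and 0.38. The cytosolic genes ILS1 and CDC60 and the mitochondrial ISM1 did not pass. In the main fit 2 of the 5 genes were thus called, against 27.7% of all genes tested. Without Replicate 1, 4 of the 5 genes passed, with ILS1 lower (adjusted p = 0.037) and ISM1 higher (adjusted p = 0.046). In that fit 2492 of the 5504 genes tested passed. ILS1 also passed with median centering (adjusted p = 0.037), and ISM1 with the correction for gene length (adjusted p = 0.028).

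For 3 other amino acid pathways under general amino acid control, the counts are read against the 27.7% of all genes that were called. Of 7 lysine synthesis genes, 2 were lower and none was higher (median -0.31), with LYS1 at -1.15 and LYS20 at -0.99. Of 6 histidine synthesis genes, 2 were higher and 2 were lower (median 0.12), with HIS7 at 1.09 and HIS4 at -0.98. Of 8 arginine synthesis genes tested, 1 was higher and 2 were lower (median -0.16), with CPA1 at -0.76 and ARG4 at 0.52. Without Replicate 2 the calls of LYS20, HIS4, CPA1 and ARG4 were lost (adjusted p between 0.077 and 0.12), those of CPA1 and ARG4 also without Replicate 3 (adjusted p = 0.068 and 0.11), and without pairing LYS1 and HIS4 alone of these 6 still passed. Without Replicate 1, 6 of the 7 lysine genes were lower, and of the 8 arginine genes 1 was higher and 4 were lower. The share of 27.7% does not apply to that fit, which called 1231 of the 5504 genes tested as higher and 1261 as lower. No test was made between the pathways.

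**Figure D4:**
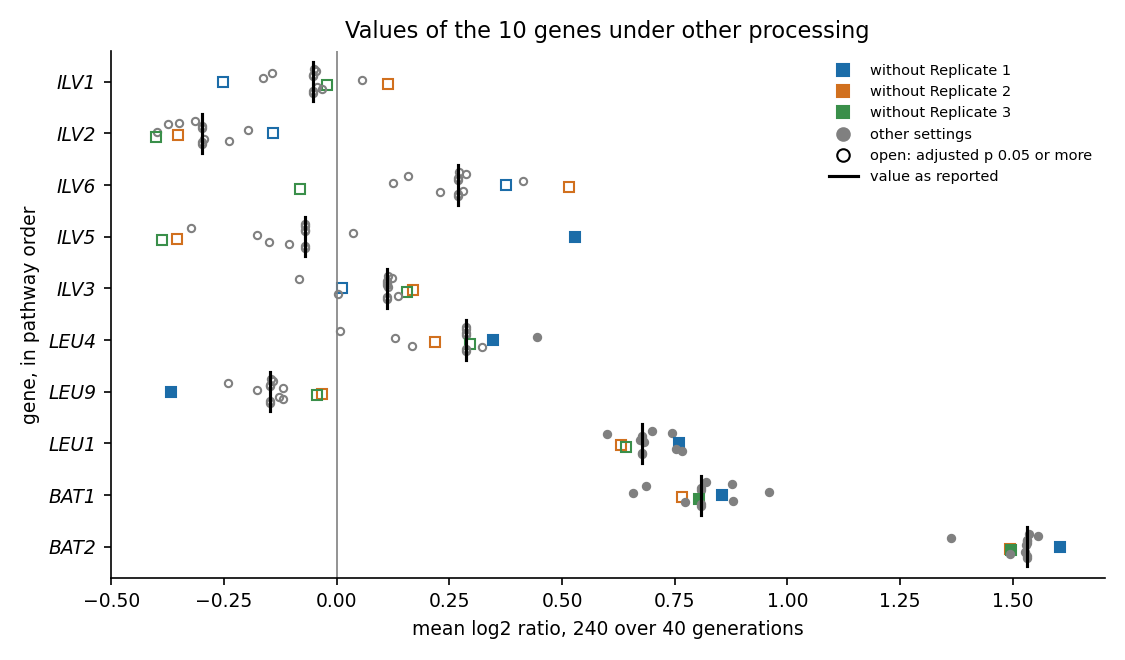
Mean log2 ratio of 240 over 40 generations (x axis) of the 10 genes (y axis) as reported (bar) and under the alternatives run, with squares for fits that leave out a culture and filled symbols for an adjusted p under 0.05. BAT2 keeps its call throughout, LEU1 and BAT1 stay above 0, and ILV5 lies between -0.39 and 0.53.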

How the data were processed

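RNA of 3 W303 cultures was compared between 240 and 40 generations on 6 two-color arrays, 2 per culture with swapped dyes. The dye of each time point was taken from the names of the scanner files and checked against the sign of the deposited ratios. The authors scanned the arrays and deposited spot intensities (foreground and background medians of both channels), the percent of saturated pixels and the flags, a score, of each spot. They also deposited log2 ratios of 240 over 40 generations per culture, normalized by steps not given in full in the sources used here; these served as an alternative. No genome build is named for the arrays, and coding lengths were taken from RefSeq for 5753 of 6252 genes, for the 10 genes in full.

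With limma 3.58.1 in R 4.3.3, medians were background-corrected (normexp, offset 50) and loess-normalized within arrays, control spots having no weight. Spots and then dye-swapped arrays were averaged, and the means of 3 cultures were tested against 0 with moderated statistics. Genes above background by 2 SDs on at least 4 arrays at one time point were kept, and adjusted p under 0.05 was a call. Probe intensities by time point came from loess and Aquantile normalization of single channels, averaged over both dyes. The time points of a culture are paired by the array itself. BAT1 and BAT2, and LEU4 and LEU9, were compared by exact sign-flip tests. On simulated data of 5504 genes, 66% of the genes changed by 1 and 90% of those changed by 2 on the log2 scale were called, as were 11 of 5304 unchanged genes. The simulation drew independent noise for each gene and culture. It holds no deviation shared by many genes of a culture. It also changed only 100 genes by 1 and 100 by 2, a smaller share than the 27.7% called in the real data. The adjusted p depends on that share. For both reasons these rates need not hold for the real calls. Arrays have no read depth, and the number of cultures limits the precision. Figures were drawn with matplotlib 3.10.9 in Python 3.11.15.

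All 10 genes are named, as is any gene of the lists of regulators, precursors, uptake, breakdown and tRNA charging; of the lysine, histidine and arginine lists, up to 2 called genes with the largest mean in size are named, and for BAT1 and BAT2 the 3 nearest genes. The 10 genes and the lists were chosen with earlier results of these data known, so the counts of called genes in them are descriptions and no test. Alternatives covered the background correction, normalization, dim probes, spots not found, each dye orientation, each culture left out, gene length, the pairing, the prior, and the selection criteria of the study (mean log2 ratio at least 0.9 in size, p at most 0.05, SD at most 0.8 and SD over the squared mean at most 0.4). These criteria were applied to the ratios and unadjusted limma p values computed here, so the genes selected need not be those of the study.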

Additional observations from a re-analysis of the deposited data

How the results depend on the processing

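The count of 3 called genes among the 10, and the 1523 calls among all genes tested, moved most with the cultures used. Leaving out 1 culture gave 1 to 6 calls among the 10 genes and 290 to 2492 among all genes; the 6 calls came without Replicate 1, with 5 higher and 1 lower, and the 1 call, BAT2, came without Replicate 2. Without the pairing of time points within a culture, that is with no replicate block, there was 1 call among the 10 genes and there were 432 among all genes. The stricter selection by mean, unadjusted p and SD gave 1 and 316. The mean of ILV5, -0.07 over the 3 cultures, lay between -0.39 and 0.53 when 1 was left out and had turned to 0.53 (adjusted p = 0.0057 with limma) without Replicate 1. Centering each array on its median in place of loess gave 650 higher and 997 lower genes, in place of 769 and 754, with the same 3 calls among the 10. Of 150 refits of the 10 genes, 134 kept both the sign of the mean and the side of the threshold, 7 lost the call and 3 gained one with the sign kept, and 6 changed sign. Of these 6, ILV5 without Replicate 1 was called, and the other 5, of ILV1, ILV3, ILV5 and ILV6, were called neither before nor after. The alternatives for spots not found, dim probes, the pairing, the prior and the selection criteria left the means of the 10 genes unchanged. In these only the call could change. BAT1 minus BAT2 and LEU4 minus LEU9 kept their signs in every alternative that gave them. Those for spots not found and dim probes could not change these signs. The cause of the dependence on single cultures was not tested.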
